A study of Rattus norvegicus with 6 samples.

Results

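Adherens junctions hold neighbouring endothelial cells together. Cadherins on facing cells bind each other outside the cell, and inside it catenins tie their tails to actin, while nectins and afadin form a parallel adhesion system. In brain capillaries these junctions underlie the tight junctions that seal the blood–brain barrier, and VE-cadherin is the cadherin that marks endothelium. The genes described here are 10 components of this junction, chosen by name: the cadherin genes Cdh5, Cdh2 and Cdh13, the nectin gene Nectin2, the afadin gene Afdn, the catenin genes Ctnna1, Ctnnb1, Jup and Ctnnd1, and the phosphatase gene Ptprb. All 10 were found among the 33566 genes of the deposited count table, and all 10 were among the 14603 genes tested, those whose counts over all libraries came to 10 or more.

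The data are RNA-seq counts from primary rat brain microvascular endothelial cells (rBMECs) of SD rats aged 18 to 22 days. The cells were isolated from the cortex, enriched in culture and used after a passage. As their source the paper's methods name the cerebral forebrain. In the Hcy group, 3 libraries came from cells treated with homocysteine (Hcy), and in the Veh group 3 libraries came from cells given sterile water. Treatment lasted 24 h. The labels give a dose of 100 µM, whereas their treatment protocol and the paper's methods also mention a prepared solution of 50 µM, so the dose is uncertain. The labels name no transgene or deletion. Whether libraries of a group came from separate isolations is not stated, so p-values measure the spread between these libraries.

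Libraries held 14024997 to 16764584 counts. Values are given as CPM, counts per 1000000 of a library after TMM scaling (edgeR's correction for composition), and each junction gene had far more counts in every library than the 3 taken as the floor of detection. Veh replicate 3 stood apart from the other Veh libraries: it lay at 27.1 on the second principal component, where Veh replicates 1 and 2 lay at -14.1 and -16.9. Its departure ran with gene length. Relative to the mean of the other Veh libraries, its median log2 difference was 0.21 over the 3931 shortest genes, 0.02 over the 3929 of middle length and -0.17 over the 3928 longest, among genes with a mean of at least 1 CPM. Results of the 10 junction genes that rest on Veh replicate 3 are given with and without it. Endothelial markers were abundant, with a summed level of 8096 to 8313 CPM in Hcy and 6898 to 7701 CPM in Veh over the 10 of 12 listed markers that were matched. In a bulk library, fewer cells of a type and less RNA per cell cannot be told apart.

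The comparison of Hcy with Veh asks whether homocysteine changed the transcripts of the adherens junction. Cdh13, which encodes T-cadherin, rose 1.76-fold. None of the other genes passed the test when all libraries were used, among them Cdh5 and Cdh2. Following the study, a gene was called when its p-value, adjusted by Benjamini-Hochberg over all tested genes, was no more than 0.05 and its log2 fold change was 1 or larger in either direction. The test throughout was the quasi-likelihood test of edgeR, and SE stands for the standard error of the log2 fold change. On this rule 0 of the 10 were called, against 0.486% of all genes tested (0.253% upwards and 0.233% downwards). The count was also 0 with DESeq2 or when p was left unadjusted, as no log2 fold change of the 10 reached 1 in either direction. With the adjusted p alone 1 of the 10 passed, against 2.34% of all genes (1.32% upwards and 1.01% downwards). DESeq2 passed 1 of the 10 and 4.19% of all genes, and 1 of the 10 reached an unadjusted p of 0.05 or less, which 13.4% of all genes reached. The median log2 fold change of the 10 was -0.01, with 4 above 0, and that of all genes was -0.02. For 3 of the 10, the ranges of the groups were separate, all of them higher in Hcy, against 20.1% of all genes in either direction, 10.8% with Hcy higher and 9.27% with Hcy lower.

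**Figure D1:**
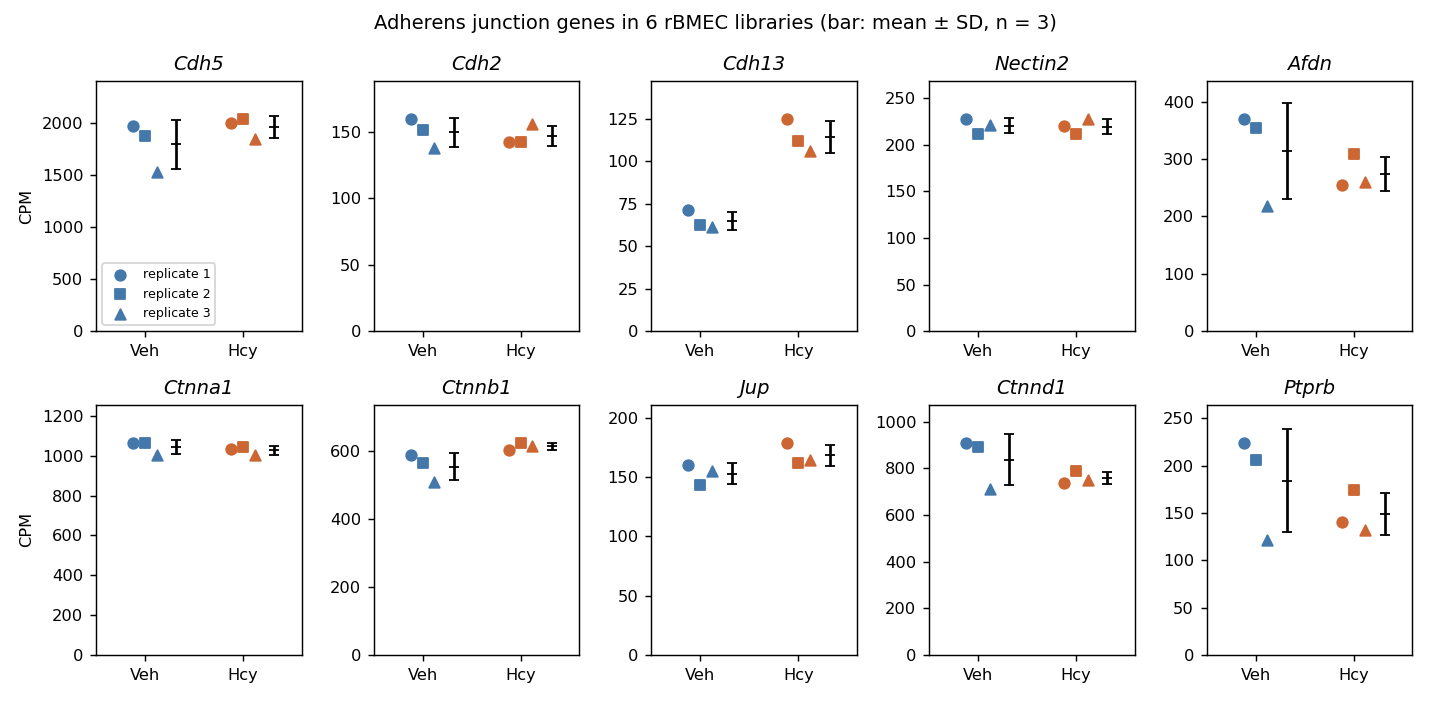
CPM (vertical axis, from 0) of each junction gene in the Veh (blue) and Hcy (orange) libraries, with replicates 1, 2 and 3 as circles, squares and triangles and the mean ± SD (n = 3) as a black bar. The Hcy and Veh points are far apart for Cdh13 (61.3 to 71.1 CPM in Veh, 106 to 125 CPM in Hcy), and Veh replicate 3 lies well below the other Veh points for Afdn and Ptprb.

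Levels of different genes were compared per kb of the deposited gene length. Cdh5, the gene of VE-cadherin, had the highest level, with 467 ± 45.8 CPM per kb (SD, n = 6 over both groups), and ranked 186 among the 14603 genes tested. The genes of the catenins in its complex followed in the order Ctnna1 at 286 ± 7.53, Ctnnb1 at 243 ± 17.6 and Ctnnd1 at 154 ± 16.1 CPM per kb (SD, n = 6). These first 4 genes kept this order in all 6 libraries, and no neighbours among them had overlapping ranges. Well below them came Nectin2 at 68.0 ± 2.21 and Afdn at 55.3 ± 11.3 CPM per kb (SD, n = 6), whose ranges overlapped. Jup at 36.2 ± 2.59 and Cdh2 at 34.2 ± 1.97 CPM per kb (SD, n = 6) overlapped as well. The lowest were Ptprb at 23.6 ± 5.95 and Cdh13 at 22.2 ± 6.89 CPM per kb (SD, n = 6). Their ranges overlapped over all libraries, but their order differed by group: Ptprb was the higher of the pair in each Veh library, and Cdh13 was the higher in each Hcy library. With any single library left out the order of the mean levels was the same, except that Cdh13 and Ptprb changed places without Veh replicate 1 or without Veh replicate 2.

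**Figure D2:**
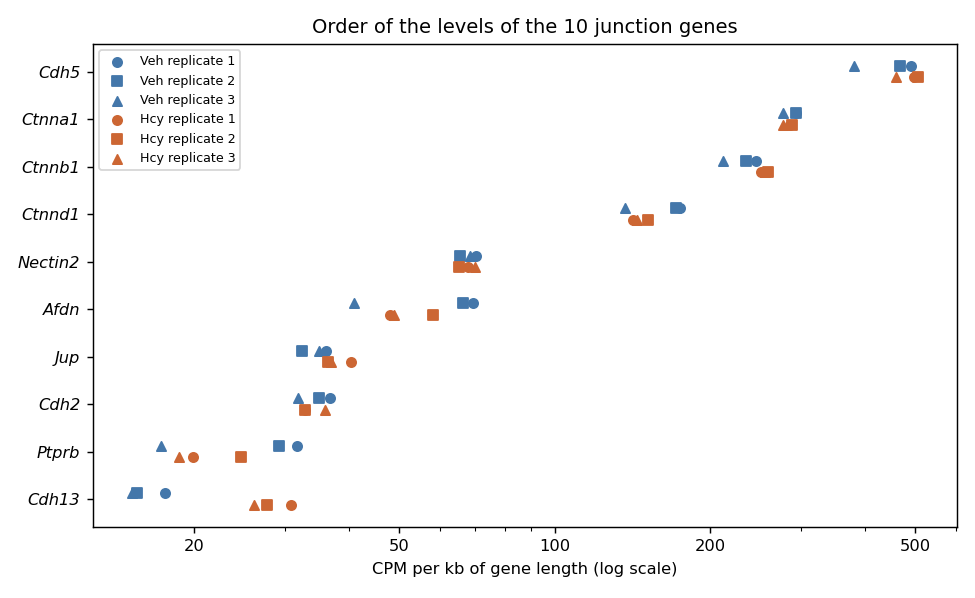
CPM per kb of gene length (horizontal axis, log scale) of the 10 junction genes in each Veh (blue) and Hcy (orange) library, from the highest mean to the lowest. Cdh5 leads with 381 to 507 CPM per kb, the catenin genes Ctnna1, Ctnnb1 and Ctnnd1 follow, and Cdh13 and Ptprb change places between the groups.

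Cdh13 encodes T-cadherin, an unusual cadherin that is held to the membrane by a lipid (GPI) anchor, has no cytoplasmic tail for catenins and binds adiponectin. It is listed on chromosome 19 from 50848736 to 51972103 on the plus strand, in a table that names no genome build. Its counts were 1736, 1669 and 1771 in Hcy replicates 1 to 3 and 1198, 982 and 886 in Veh replicates 1 to 3. These correspond to 125, 112 and 106 CPM in Hcy and to 71.1, 62.6 and 61.3 CPM in Veh, so every Hcy library lay above every Veh library. Hcy averaged 114 ± 9.65 CPM and Veh 65.0 ± 5.33 CPM (SD, n = 3 each). Its log2 fold change in Hcy relative to Veh was 0.81 (SE 0.09, edgeR adjusted p = 0.0037), with a 95% interval from 0.60 to 1.02, so the rise passed the adjusted p but not the fold-change threshold. Its adjusted p lay between 1.37e-11 and 0.0278 over 14 alternatives, of which all passed, and its log2 fold change between 0.74 and 0.88. The count table lists 4 genes inside the Cdh13 interval, and none had a count in any library. T-cadherin is also a gene of smooth muscle. The 12 pericyte and smooth muscle markers, described further beside Cdh2, summed to 681 to 708 CPM in Hcy and 1124 to 1353 CPM in Veh. Of these markers 6 were above 0 in log2 fold change, and 3 passed the adjusted p and fell. Their part in the Cdh13 level was not tested.

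Genes whose pattern over the 6 libraries lay closest to that of Cdh13 were sought among 11400 others with a mean of at least 1 CPM, a search added after the Cdh13 values were seen. Likeness was the mean absolute difference of log2 CPM, each gene centred on its own mean. The closest were Zmynd15 at 0.05, the laminin chain gene Lamb1 at 0.06 and Psat1, an enzyme gene of serine synthesis, at 0.06. Lamb1 averaged 1213 ± 8.47 CPM in Hcy and 714 ± 54.9 CPM in Veh (SD, n = 3 each), and Psat1 averaged 84.7 ± 5.84 and 50.2 ± 1.38 CPM (SD, n = 3 each). As these genes were chosen for their likeness, their difference between groups is given without a test.

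Cdh5 encodes VE-cadherin, the main adhesion molecule of endothelial junctions. The table places it on the minus strand of chromosome 19, between 1023683 and 1074365. It was at 2002, 2039 and 1844 CPM in Hcy replicates 1 to 3 and at 1974, 1880 and 1535 CPM in Veh replicates 1 to 3. The groups overlapped, and the lowest value was that of Veh replicate 3, at 79.6% of the mean of the other Veh libraries. Relative to Veh the log2 fold change was 0.13 (SE 0.10, edgeR adjusted p = 0.65), with a 95% interval from -0.09 to 0.35. Without Veh replicate 3 it was 0.03, with an interval from -0.10 to 0.15. Of the 10 endothelial markers matched, 0 passed the adjusted p, 5 reached an unadjusted p of 0.05 or less and DESeq2 passed 3, against 2.34%, 13.4% and 4.19% of all genes. The log2 fold changes of these 5 were 0.36 for Vwf, 0.37 for Kdr, 0.26 for Flt1, -0.32 for Slc2a1 and -0.24 for Tek. Without Veh replicate 3, 4 of the 10 markers passed the adjusted p, against 6.67% of all genes, and 5 passed with an offset for gene length, added after the data were seen, against 3.94%. By the same measure of likeness, the genes closest to Cdh5 were Col4a1, the collagen IV chain gene of the vascular basement membrane, at 0.02, the cell cycle factor gene E2f3 at 0.02 and Tut7 at 0.03. The largest departure in the Cdh5 pattern was that of Veh replicate 3. How far this likeness rests on that library was not tested.

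Cdh2 encodes N-cadherin, which endothelial cells carry alongside VE-cadherin and which joins them to pericytes. The table places it on the minus strand of chromosome 18, between 8146971 and 8360684. Its level was 142, 143 and 156 CPM in Hcy replicates 1 to 3 and 159, 152 and 138 CPM in Veh replicates 1 to 3, and the groups overlapped. A log2 fold change of -0.03 was fitted (SE 0.08, edgeR adjusted p = 0.932), with a 95% interval from -0.21 to 0.15, and its sign turned to 0.02 without Veh replicate 1. The genes closest in pattern were Ppp1r9b at 0.01, the planar polarity gene Vangl1 at 0.02 and Nol9 at 0.02. Within a library, the log2 ratio of Cdh2 to Cdh5 per kb, which does not depend on library scaling, was -3.92, -3.94 and -3.67 in Hcy and -3.74, -3.74 and -3.58 in Veh. N-cadherin transcripts were thus at 6.95% of the VE-cadherin level in Hcy and 7.76% in Veh, as geometric means. The difference of -0.16 in the log2 ratio was within the spread between libraries (two-sided exact permutation test, p = 0.3, and 0.45 adjusted over 3 ratios). The smallest p that 3 against 3 allows is 0.1. With a library left out, the difference ran from -0.25 (without Hcy replicate 3) to -0.11 (without Veh replicate 3).

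Markers of cells that carry N-cadherin were read beside it. The 12 pericyte and smooth muscle markers summed to 681 to 708 CPM in Hcy and 1124 to 1353 CPM in Veh, and most of it was the smooth muscle gene Tagln, at 582 CPM on average in Hcy and 1071 CPM in Veh. Of the 12, 3 passed the adjusted p and fell: Tagln (log2 fold change -0.88), Acta2 (-0.64) and Cnn1 (-1.39), which encode contractile proteins. Over all genes 2.34% passed, and 1.01% passed downwards. The median log2 fold change of the 12 was 0.20, with 6 above 0. Among the pericyte markers, Cspg4 was at 0.537 to 1.15 CPM in Hcy and 0.191 to 0.297 CPM in Veh (edgeR adjusted p = 0.188), and Rgs5 at 0.298 to 0.604 and 0.0692 to 0.255 CPM (edgeR adjusted p = 0.464). Pdgfrb was at 1.79 to 3.63 CPM in Hcy and 1.21 to 2.35 CPM in Veh (edgeR adjusted p = 0.443). Kcnj8 was at 0.239 to 0.403 CPM in Hcy and 0.415 to 0.828 CPM in Veh (edgeR adjusted p = 0.46), and Anpep at 0 to 0.179 and 0.0637 to 0.346 CPM. The floor of 3 counts is 0.178 to 0.215 CPM, so Cspg4 in Veh, Rgs5, Kcnj8 and Anpep had values at or near it. Only 8 of the 12 markers were above the floor in every library. The part of these markers in the Cdh2 level was not tested. Summed levels in Hcy and Veh were 44.9 to 68.7 and 63.5 to 91.2 CPM for 5 fibroblast markers, and 128 to 131 and 144 to 165 CPM for 6 astrocyte markers. Those of 6 microglia and macrophage markers were 1.68 to 2.66 and 1.45 to 1.72 CPM, those of 6 neuron markers 7.05 to 9.77 and 5.22 to 7.18 CPM, those of 6 oligodendrocyte markers 10.6 to 12.4 and 11.3 to 11.3 CPM, and those of 6 epithelial and choroid plexus markers 0.119 to 0.215 and 0.208 to 0.356 CPM. The defining markers Aqp4, Slc1a2, Ptprc, Cx3cr1, Rbfox3, Snap25, Mag and Esrp1 had 0 counts in all libraries. Other markers of these lists were present in every library, among them Gja1 at 113 to 150 CPM, which made up most of the astrocyte sum, Mog at 9.47 to 10.4 CPM, Tubb3 at 4.14 to 7.33 CPM and Syt1 at 1.08 to 2.63 CPM.

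The catenin genes that link cadherins to actin did not pass the test. Ctnna1 encodes αE-catenin, the link from the cadherin complex to actin. It was at 1034, 1046 and 1003 CPM in Hcy replicates 1 to 3 and 1065, 1063 and 1005 CPM in Veh replicates 1 to 3, with overlapping groups. Its log2 fold change was -0.02, and its 95% interval ran from -0.16 to 0.11 (edgeR adjusted p = 0.924). It lies on the plus strand of chromosome 18 between 27923572 and 28055960. Of the 2 genes that overlap it on the other strand, neither had more than 2 counts in any library.

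Ctnnb1 encodes β-catenin, which binds the cadherin tail and also carries Wnt signals to the nucleus (chromosome 8, 129617812 to 129627372, plus strand). Its level was 603, 624 and 615 CPM in Hcy replicates 1 to 3 and 590, 564 and 509 CPM in Veh replicates 1 to 3. Each Hcy library was thus above each Veh library, the closest being 603 and 590 CPM. The difference did not pass the test, with a log2 fold change of 0.15, an SE of 0.07 and an edgeR adjusted p of 0.438. Without Veh replicate 3 the log2 fold change was 0.09.

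Jup encodes plakoglobin (γ-catenin), a close relative of β-catenin that serves in both adherens junctions and desmosomes (chromosome 10, 88279632 to 88307412, minus strand). It was at 179, 162 and 164 CPM in Hcy replicates 1 to 3 and 160, 144 and 155 CPM in Veh replicates 1 to 3, and the groups again did not overlap, the closest libraries being at 162 and 160 CPM. A log2 fold change of 0.14 (SE 0.08, edgeR adjusted p = 0.506) did not pass. Plakoglobin transcripts were at 14.8% of the β-catenin level per kb in Hcy and at 14.9% in Veh. The log2 ratio of Jup to Ctnnb1 differed by -0.01 between the groups (two-sided exact permutation test, p = 0.8, and 0.8 adjusted over 3 ratios).

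Ctnnd1, Afdn and Ptprb shared a pattern in which Veh replicate 3 lay far below the other Veh libraries and below the Hcy libraries. Ctnnd1 encodes p120-catenin, which keeps VE-cadherin at the cell surface by blocking its uptake (chromosome 3, 72002152 to 72053049, minus strand). Its level was 737, 789 and 751 CPM in Hcy replicates 1 to 3 and 909, 893 and 711 CPM in Veh replicates 1 to 3. Veh replicates 1 and 2 were above all Hcy libraries, and Veh replicate 3 was below them. The fitted log2 difference was -0.14 with all libraries (SE 0.10, edgeR adjusted p = 0.598) and -0.25 without Veh replicate 3 (SE 0.05, edgeR adjusted p = 0.0153).

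Afdn encodes afadin, the scaffold that ties nectins to actin (chromosome 1, 53715693 to 53802658, minus strand). It was at 255, 309 and 260 CPM in Hcy replicates 1 to 3 and at 369, 354 and 218 CPM in Veh replicates 1 to 3, where replicate 3 had 60.2% of the mean of the other Veh libraries. With all libraries the log2 fold change of -0.19 did not pass (SE 0.18, edgeR adjusted p = 0.72). Without Veh replicate 3 it was -0.40 (SE 0.08, edgeR adjusted p = 0.0157).

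Ptprb encodes VE-PTP, an endothelial receptor phosphatase that associates with VE-cadherin and with the Tie2 receptor (chromosome 7, 59326518 to 59425718, plus strand). Its level was 140, 174 and 132 CPM in Hcy replicates 1 to 3 and 224, 206 and 122 CPM in Veh replicates 1 to 3. Replicate 3 of Veh, at 56.7% of the mean of the other Veh libraries, was the lowest of all 6. In log2 terms the difference was -0.31 with all libraries (SE 0.20, edgeR adjusted p = 0.592) and -0.53 without Veh replicate 3 (SE 0.10, edgeR adjusted p = 0.0142). The log2 ratio of Ptprb to Cdh5 per kb was -4.64, -4.36 and -4.62 in Hcy and -3.95, -4.00 and -4.46 in Veh. The ratio differed by -0.40 on the log2 scale (two-sided exact permutation test, p = 0.2, and 0.45 adjusted over 3 ratios), and the groups overlapped through Veh replicate 3.

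Without Veh replicate 3, 4 of the 10 junction genes passed the adjusted p, namely Cdh13 upwards and Ctnnd1, Afdn and Ptprb downwards. In that fit 6.67% of 14352 genes passed in either direction, and 3.18% passed downwards. With each other library left out, Cdh13 was the 1 that passed. With the length-dependent offset for each library, Ctnnd1 had an adjusted p of 0.231, Afdn 0.537 and Ptprb 0.351 in edgeR, with log2 fold changes of -0.14, -0.19 and -0.29. Leaving out Veh replicate 1 or 2 instead gave log2 fold changes of -0.08 and -0.10 for Ctnnd1, -0.06 and -0.10 for Afdn and -0.14 and -0.22 for Ptprb. The calls for these 3 genes therefore rest on whether Veh replicate 3 is included. Veh replicate 3 was lower than the mean of the other Veh libraries for 8 of the 10 genes, with the exceptions of Jup at 102% and Nectin2 at 101%.

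**Figure D3:**
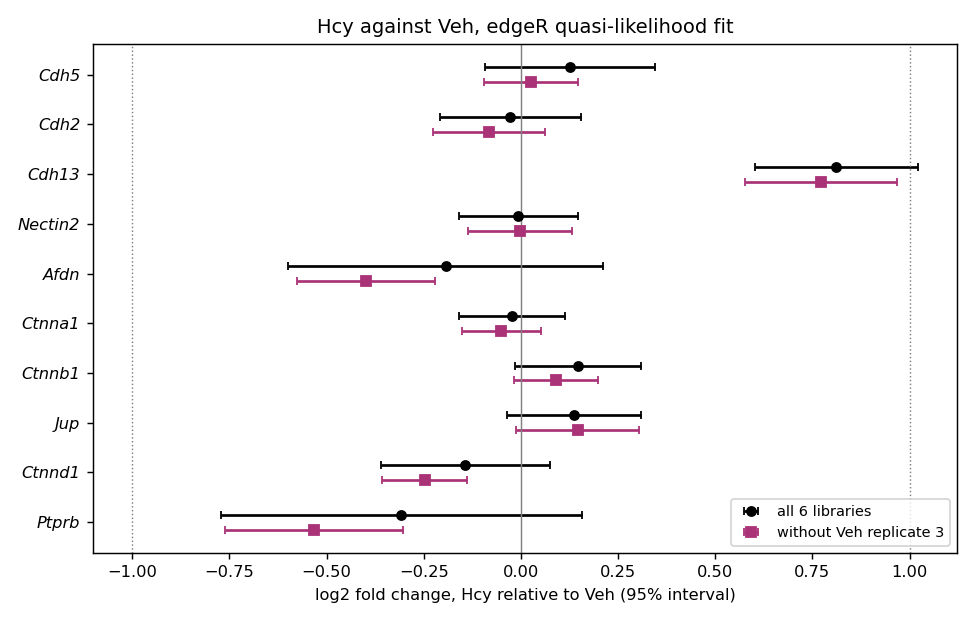
log2 fold change in Hcy relative to Veh (horizontal axis) with its 95% interval for each junction gene, from all 6 libraries (black) and without Veh replicate 3 (purple), where dotted lines mark a log2 fold change of 1 either way. Cdh13 is to the right of 0 in both fits, at 0.81 and 0.77, while Afdn, Ctnnd1 and Ptprb leave 0 without Veh replicate 3.

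Nectin2 encodes nectin-2, an adhesion molecule that binds afadin (chromosome 1, 80631450 to 80666585, minus strand). It was at 220, 211 and 227 CPM in Hcy replicates 1 to 3 and 227, 212 and 222 CPM in Veh replicates 1 to 3, with groups that overlapped almost fully. Its log2 fold change was -0.01, with a 95% interval from -0.16 to 0.15 (edgeR adjusted p = 0.983). Its coefficient of variation, 3.69% in Hcy and 3.57% in Veh was small, whereas Ptprb varied by 15.0% and 29.6% and Afdn by 10.8% and 26.6%.

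Around the 10 genes, 92 other genes of the junction were listed in 8 groups by role, and 90 were matched in the count table, of which 69 reached the minimum count for testing. By edgeR's test 0 of the 69 were called at both thresholds, which DESeq2 and the unadjusted p also left at 0. Their log2 fold changes in edgeR ran from -0.73 to 0.97, so there the fold threshold alone gave 0 with either p. With the adjusted p alone 1 passed, Arvcf, and it fell, where 2.34% of all genes passed. DESeq2 passed 3, Arvcf, Dsp and Kdr, against 4.19% of all genes. At an unadjusted p of at most 0.05 there were 12, against 13.4%, and without Veh replicate 3 there were 9 at the adjusted p, against 6.67%. The median log2 fold change of the 69 was 0.01, with 36 above 0, and 18 had groups that did not overlap, 9 in each direction, where the share over all genes was 20.1%.

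Arvcf encodes a relative of p120-catenin that binds the same stretch of the cadherin tail. It was at 42.6, 41.6 and 44.6 CPM in Hcy replicates 1 to 3 and 55.9, 52.2 and 55.5 CPM in Veh replicates 1 to 3, so all Hcy libraries were below all Veh libraries. The count table places it on the minus strand of chromosome 11, between 86736142 and 86793791. On the log2 scale Arvcf fell by 0.35 (SE 0.07, edgeR adjusted p = 0.0467). Unlike Ctnnd1, its Veh replicate 3 was at 103% of the mean of the other Veh libraries. Its adjusted p lay between 0.0193 and 0.191 over 14 alternatives. It passed in 8 of them, was 0.0811 with the replicate block, and was above the threshold in the 5 fits that left out a library other than Veh replicate 3. In those 5 fits 0.557% to 1.05% of all genes passed, against 2.34% in the main fit. The log2 fold change of Arvcf lay between -0.38 and -0.32 over the 14 alternatives.

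The promoters of this p120 pair are shown because one gene passed the test with all libraries and the other passed it only without Veh replicate 3. The 250 bases before the transcription start that RefSeq gives (build GRCr8, not the build of the count table's positions) are printed 5′ to 3′ on the gene's strand, with capitals for matches to CCAAT or GGGCGG on either strand. Ctnnd1 lies at chr3:90141190-90141439 and Arvcf at chr11:96150145-96150394, both on the minus strand.
Ctnnd1: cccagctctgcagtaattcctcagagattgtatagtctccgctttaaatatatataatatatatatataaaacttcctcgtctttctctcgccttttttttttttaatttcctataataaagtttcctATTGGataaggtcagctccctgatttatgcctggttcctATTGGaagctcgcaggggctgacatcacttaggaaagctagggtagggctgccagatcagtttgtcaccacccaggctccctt
Arvcf: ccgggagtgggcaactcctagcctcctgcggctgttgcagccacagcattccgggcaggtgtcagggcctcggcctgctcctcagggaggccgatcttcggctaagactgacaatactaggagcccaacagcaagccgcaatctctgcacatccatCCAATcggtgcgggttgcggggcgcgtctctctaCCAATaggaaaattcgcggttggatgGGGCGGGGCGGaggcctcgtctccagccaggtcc
Both windows held 2 matches to CCAAT, which 34% of all 33469 promoter windows hold at least once. Arvcf held 2 matches to GGGCGG, which overlap by a base, and Ctnnd1 held 0, where 30.5% of all windows hold one. The Arvcf window had 63.2% G and C bases and 17 CpG dinucleotides, and the Ctnnd1 window 40.8% and 4, against medians of 51.2% and 5. The RefSeq table matched 3 of the 10 junction genes, Ctnnb1, Ctnnd1 and Jup.

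The other groups were described by their counts, against 2.34% of all genes at the edgeR adjusted p, 13.4% at the unadjusted p, 4.19% with DESeq2, 6.67% without Veh replicate 3 and 3.94% with the length offset. Of 9 tested among the other cadherins, 0 passed by edgeR or DESeq2 and 2 reached an unadjusted p of 0.05 or less. The most abundant per kb were Cdh11, a cadherin of mesenchymal cells, with a log2 fold change of -0.15 (edgeR adjusted p = 0.544), and Cdh8, with averages of 78.0 ± 2.84 CPM for Hcy and 62.6 ± 9.98 CPM for Veh (SD, n = 3 each, edgeR adjusted p = 0.249). Their log2 fold changes without Veh replicate 3 were -0.23 and 0.19, and neither passed. Without Veh replicate 1 they were -0.08 and 0.37, and again neither passed. With the length offset Cdh8 passed, at 0.32 (edgeR adjusted p = 0.0365). Of 5 nectins and nectin-like molecules, 0 passed by either tool and 1 reached an unadjusted p of 0.05 or less. That gene was Cadm1, at 2.62 to 3.34 CPM in Hcy and 3.94 to 6.41 CPM in Veh (edgeR adjusted p = 0.183), which passed without Veh replicate 3. The most abundant per kb were Pvr at 355 ± 11.1 and 325 ± 14.2 CPM (SD, n = 3) and Nectin3 at 11.9 ± 1.11 and 10.9 ± 0.919 CPM (SD, n = 3), the latter with a log2 fold change of 0.13, or 0.06 without Veh replicate 3. Besides Arvcf, the catenin relatives held Pkp4, with a log2 fold change of -0.17 and an edgeR adjusted p of 0.313, and Ctnnal1, with 0.12 and 0.821.

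Of 10 actin linkers, 0 passed by edgeR or DESeq2, and 1 reached an unadjusted p of 0.05 or less, Evl, which passed without Veh replicate 3. The α-actinin genes Actn1 and Actn4 had log2 fold changes of -0.09 and 0.01, which were -0.15 and -0.05 without Veh replicate 3. Without Veh replicate 1 they were -0.03 and 0.08. Of 14 genes of Rap1 and CCM signalling, the GTPase pathway that strengthens endothelial junctions, 0 passed by either tool, 0 reached an unadjusted p of 0.05 or less, and 2, Heg1 and Rapgef1, passed without Veh replicate 3. Rap1b and Rasip1, the most abundant of these per kb, had log2 fold changes of -0.13 and 0.12, or -0.16 and 0.18 without Veh replicate 3. Without Veh replicate 2 they were -0.11 and 0.05. Of 11 junction kinases and phosphatases, 0 passed by edgeR, 5 reached an unadjusted p of 0.05 or less and DESeq2 passed 1, Kdr, the main VEGF receptor gene, which is also one of the endothelial markers. In edgeR without Veh replicate 3, 3 passed, Kdr, Src and Tek, and with the length offset 3 passed, Kdr, Ptprm and Tek. Src averaged 274 ± 13.3 CPM in Hcy and 321 ± 2.39 CPM in Veh (SD, n = 3 each, edgeR adjusted p = 0.144, and 0.0373 without Veh replicate 3). The phosphatase gene Ptprm averaged 441 ± 13.8 and 368 ± 52.9 CPM (SD, n = 3 each), with a log2 fold change of 0.26 (edgeR adjusted p = 0.302) that was 0.15 without Veh replicate 3 (edgeR adjusted p = 0.134) and 0.26 with the length offset (edgeR adjusted p = 0.047).

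Of 10 desmosomal partners of plakoglobin, 4 were tested, and the desmosomal cadherin genes Dsg1, Dsg3 and Dsc1 had 0 counts in all libraries. Of these 4, 0 passed by edgeR, while DESeq2 passed 1, and 1 reached an unadjusted p of 0.05 or less. That gene was Dsp, which encodes desmoplakin, a plakoglobin-binding linker to intermediate filaments. It was at 259, 281 and 277 CPM in Hcy replicates 1 to 3 and 221, 213 and 166 CPM in Veh replicates 1 to 3, with no overlap. In log2 terms it was 0.45 higher in Hcy (SE 0.11, edgeR adjusted p = 0.0777). Over 14 alternatives its adjusted p ranged from 0.00243 to 0.275, and 4 of them passed. Without Veh replicate 3 the log2 fold change was 0.33 (edgeR adjusted p = 0.00886). The second most abundant per kb, Pkp1, had a log2 fold change of 0.19 (edgeR adjusted p = 0.469).

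**Figure D4:**
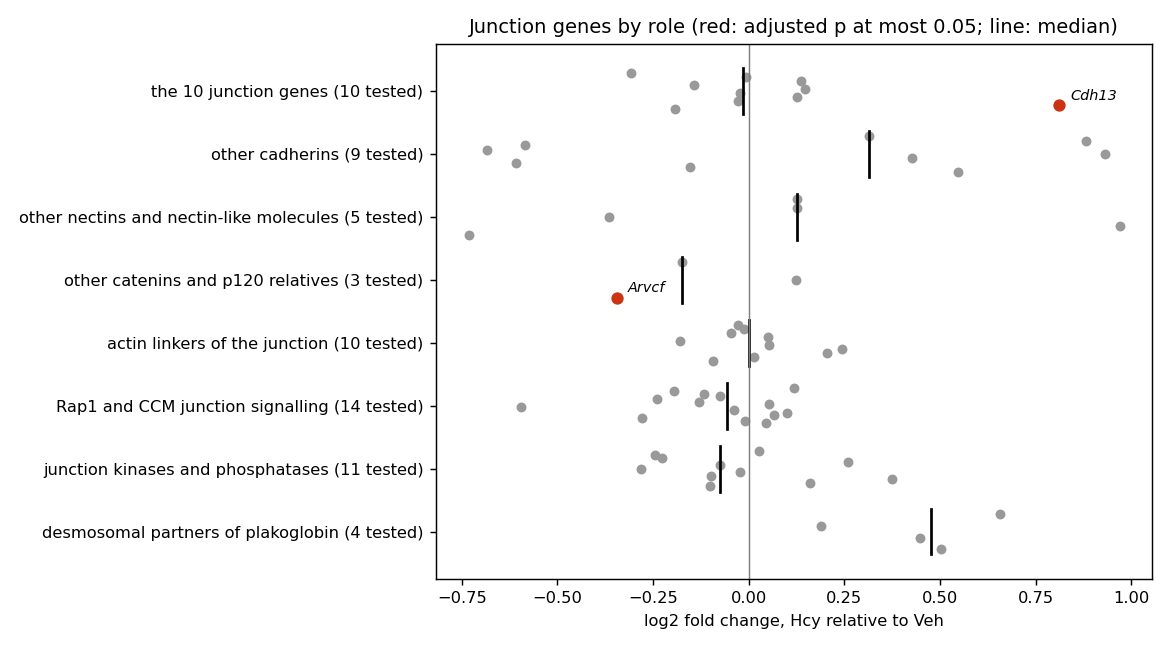
log2 fold change in Hcy relative to Veh (horizontal axis) of each tested gene, in rows for the 10 junction genes and for the groups of other junction genes described here, with red for an adjusted p of at most 0.05 and a black line at each row's median. Cdh13 at 0.81 and Arvcf at -0.35 are the red points, and each row's median lies between -0.17 and 0.48.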

How the data were processed

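RNA-seq of 6 rBMEC libraries was analysed, 3 Hcy and 3 Veh, grouped by their titles. The authors deposited raw read counts per gene, with gene positions and lengths. The submitters' processing notes name fastp, HISAT2 2.2.1, StringTie 2.2.3, featureCounts 2.0.6 and DESeq2 1.42.0 and the build mRatBN7.2, without roles. The count table names no build. Its positions reach 282724300 on chromosome 1, which is beyond the end of that chromosome in mRatBN7.2, so they are printed as listed and without a build. Whether counting used strand is not given in the sources used here. The authors' table of normalized values, fold changes and p-values was not used.

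Genes with at least 10 summed counts were fitted in R 4.3.3 with edgeR 4.0.16 (TMM factors of 0.977 to 1.02, quasi-likelihood test, condition as the only term, Benjamini-Hochberg over 14603 genes). CPM is TMM-scaled. The standard error is the log2 fold change over the root of F. Floors of 3 counts were 0.178 to 0.215 CPM and cover counting error only. Ratios were tested by exact permutation of libraries. Alternatives were DESeq2, its size factors, library totals, filterByExpr, no filter, a replicate block, unadjusted p, a prior count of 2, and leaving out each library. A length offset was added after the data were seen. On simulated counts for Hcy against Veh with a log2 change of 2, edgeR recovered 200 of 200 changed genes among 14432, with 2 wrong calls. The simulation gave all genes the same dispersion and a larger change than any junction gene showed. It therefore does not measure how well smaller differences would be found.

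The genes and lists were chosen with earlier results of these data known. Named were the 10 junction genes, other listed genes that passed the adjusted p (at most 4 per list), the most abundant pair per kb of each list (1 list is counted in the totals and not otherwise reported here), the 3 genes closest to Cdh5 and to Cdh2 over 6 libraries, and defining markers. Dsp, Kdr, Tek, Cadm1, Evl, Heg1, Rapgef1, Ctnnal1 and the neighbours of Cdh13 were named after their values were seen. Log2 values for likeness used a pseudocount of 0.5 CPM.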

Additional observations from a re-analysis of the deposited data

How the results depend on the processing

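The 10 junction genes gave 0 calls at both thresholds in each alternative run. None of their log2 fold changes reached 1 in either direction, the largest being 0.88 for Cdh13. The fold threshold alone thus fixed this count, whatever the p. With the adjusted p alone, 1 of them passed in each alternative except without Veh replicate 3, where 4 did, and with each library left out the count ran from 1 to 4. Over all genes, 71 were called in the main analysis, 109 without a filter, 374 with the unadjusted p and 39 to 112 with a library left out. Of the other listed junction genes 1 passed, against 3 with DESeq2, 2 without a filter, 6 with the length offset, 12 with the unadjusted p and 0 to 9 with a library left out. The share of all genes that passed moved as well. It was 2.34% in the main fit, 4.19% with DESeq2, 2.48% without a filter and 3.94% with the length offset. It was 13.4% with the unadjusted p and 0.557% to 6.67% with a library left out. With a library left out the log2 fold change crossed 0 for Cdh2 (-0.082 to 0.022), Nectin2 (-0.036 to 0.021) and Actn4 (-0.051 to 0.077), and the log2 difference in the Jup to Ctnnb1 ratio ran from -0.071 to 0.058. The turns came without Veh replicate 1 for Cdh2, without Hcy replicate 2 or Veh replicate 1 for Nectin2, without Hcy replicate 2 or Veh replicate 3 for Actn4, and without Hcy replicate 2 or 3 or Veh replicate 3 for the ratio. The cause was not tested.

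A replicate block, which fits the sample number as a term, called 82 genes, Cdh13 kept its call at the adjusted p (edgeR adjusted p = 0.00392), and 0 of the other listed genes passed. Same-numbered Hcy and Veh libraries had correlations of their deviations across genes of -0.02, 0.21 and 0.05 for numbers 1, 2 and 3. Those of unlike numbers ran from -0.23 (Hcy replicate 2 with Veh replicate 3) to 0.18 (Hcy replicate 1 with Veh replicate 3). With 3 libraries per group these values cannot exclude pairing. The labels do not state it, and the numbers were not taken to pair the libraries. Each junction gene had counts far above the floor of 3 in every library.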
